A study of Homo sapiens with 12 samples.

Results

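The comparison described here sets human brain microvascular endothelial cells that received an siRNA against SLC2A1 (siGlut1) and high glucose together against cells that received neither. It takes 6 of the 12 samples of the series, chosen by their labels alone. In the labels' spelling the genotypes are siGlut1 and Non-silence and the treatments HighGlucose and control. The siGlut1 high group (n = 3) was transfected with siGlut1 and kept in high glucose, and the non-silencing control group (n = 3) was transfected with a non-silencing siRNA and kept in control medium. Transfection lasted 48 h in all groups, so the baseline cells were transfected too. The other groups carried 1 of the changes each: siGlut1 in control medium (siGlut1 control, n = 3) and non-silencing siRNA in high glucose (non-silencing high, n = 2 of 3 columns used). They enter the model and serve to divide the combined effect. The sources used here give neither the glucose concentrations nor the length of exposure, and the cells are a purchased culture of 1 cell type.

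Brain endothelial cells form the blood-brain barrier, and SLC2A1 encodes Glut1, the transporter through which they take up glucose and pass it to the brain. High glucose is known in endothelium for feeding side branches of glycolysis, such as the polyol, hexosamine and methylglyoxal routes, and for oxidative and inflammatory responses. The comparison measures transcript levels under both changes at once.

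Total counts of the 11 libraries ran from 40135082 to 90536476, and every count in them was even. The column of non-silencing high 2 held the mean of replicates 1 and 3 in 23397 of 23398 entries and was left out. Non-silencing control 3 and siGlut1 control 3 lay farthest from the rest of their groups (root mean square difference over genes 0.473 and 0.448). Non-silencing control 2 was nearly as far from its group (0.435). The counts of a list without both libraries numbered 3 of control glucose are given beside its own, except for the cell type markers. All 8 endothelial markers (PECAM1, CDH5, VWF, KDR, TEK, TIE1, ERG and CLDN5) were present, with sums of 5636 to 7017 CPM (counts scaled to the library's size) in siGlut1 high and 4706 to 7548 CPM in non-silencing control. Of 12 mural cell markers, RGS5 and ANPEP were abundant, while 6 were below 1 CPM, among them PDGFRB, CSPG4 and DES. ACTA2 was at a mean of 20.6 CPM at baseline and 20.8 CPM in siGlut1 high. TAGLN was called higher (0.99, adjusted p = 0.0267), a call that ended in the removals given below. The sums of all 12 were 3429.7 to 3789 CPM in siGlut1 high and 3330 to 3895 CPM at baseline. Of 7 astrocyte markers 6 were below 1 CPM (AQP4 at 0), the list's 346 to 445 CPM being almost all GJA1, and of 10 microglia and leukocyte markers 9 were (P2RY12 at 0), its 39.4 to 61.1 CPM being mostly CD68. Neuron and oligodendrocyte markers summed to 124 to 159 CPM in siGlut1 high and 115 to 130.1 CPM at baseline, 7 of 10 below 1 CPM (STMN2 at 0), and SYT1 was called higher (0.403, adjusted p = 0.0225). Epithelial markers summed to 347 to 421 CPM and 367 to 454 CPM, 5 of 10 below 1 CPM (CDH1 at 0) while KRT18 was at 231 to 273 CPM, and KRT7 was called higher (0.85, adjusted p = 0.0225). The part of such cells in the results was not tested. SYT1 lost its call with NC 1, NC 2, SH 2 or SH 3 removed and KRT7 with NC 2, SH 2 or SH 3 (adjusted p up to 0.0929). The length correction described below also ended the call of SYT1 (adjusted p = 0.0547). The labels do not say that replicates are separate cultures, so the spread behind the p-values may be technical, since it is only that between these samples. In lists of libraries left out, NC stands for non-silencing control, NH for non-silencing high, SC for siGlut1 control and SH for siGlut1 high, and each library so listed ended the call when it alone was removed. A gene is called where edgeR's quasi-likelihood test gave a Benjamini-Hochberg adjusted p under 0.05 over all 14298 genes tested. All values are shares of a library's RNA, in which fewer cells and less RNA per cell cannot be told apart.

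SLC2A1 itself (chromosome 1, 43391046 to 43424847, hg19) was at 25.7, 23.7 and 22.2 CPM in non-silencing control 1, 2 and 3 and at 7.09, 7.19 and 6.38 CPM in siGlut1 high 1, 2 and 3. The groups lay far apart, and 0.288 of the baseline level was left (log2 fold change -1.796 ± 0.13 SE, adjusted p = 0.00015). The fall divided into -1.59 ± 0.095 SE for the siRNA component and -0.202 ± 0.095 SE for the glucose component. The call held with any 1 library left out. Of 11 tested glucose and hexose transporters, 2 rose and 2 fell, and 3 rose and 4 fell without NC 3 and SC 3. The share called was 36.4%, beside 9.03% of all tested genes. SLC5A3, which imports the osmolyte myo-inositol, was at 17.8, 14.7 and 18.3 CPM against 30.1, 30.8 and 25.1 CPM, and rose (0.76 ± 0.13 SE, adjusted p = 0.00825), and SLC2A12 rose by 0.55 (adjusted p = 0.0168). SLC2A6 fell, with -0.56 (adjusted p = 0.0292). SLC2A3, the next glucose transporter of high affinity, gave 0.16 (adjusted p = 0.162). Leaving out 1 library ended the call of SLC2A12 (NC 1 and 2, SH 2 and 3) and SLC2A6 (NC 1 and 2, SH 1 to 3), with adjusted p up to 0.0986.

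The combined change reached 1291 of 14298 tested genes (9.03%), 651 higher (4.55%) and 640 lower (4.48%), with a median absolute log2 fold change of 0.47. Among them were 166 with a change of 2-fold or more. In none of the 1291 did the libraries of both groups overlap, and the same held for 29% of the genes tested (14.1% higher, 14.9% lower). The count of the combined effect depended on single libraries: it was 501 with NC 1 removed, 624 with NC 2, 2106 with NC 3, 628 with SH 1, 412 with SH 2 and 601 with SH 3, and it was 3052 without both control-glucose libraries numbered 3. The plot of gene levels by library shows 8 of the genes described below.

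**Figure D1:**
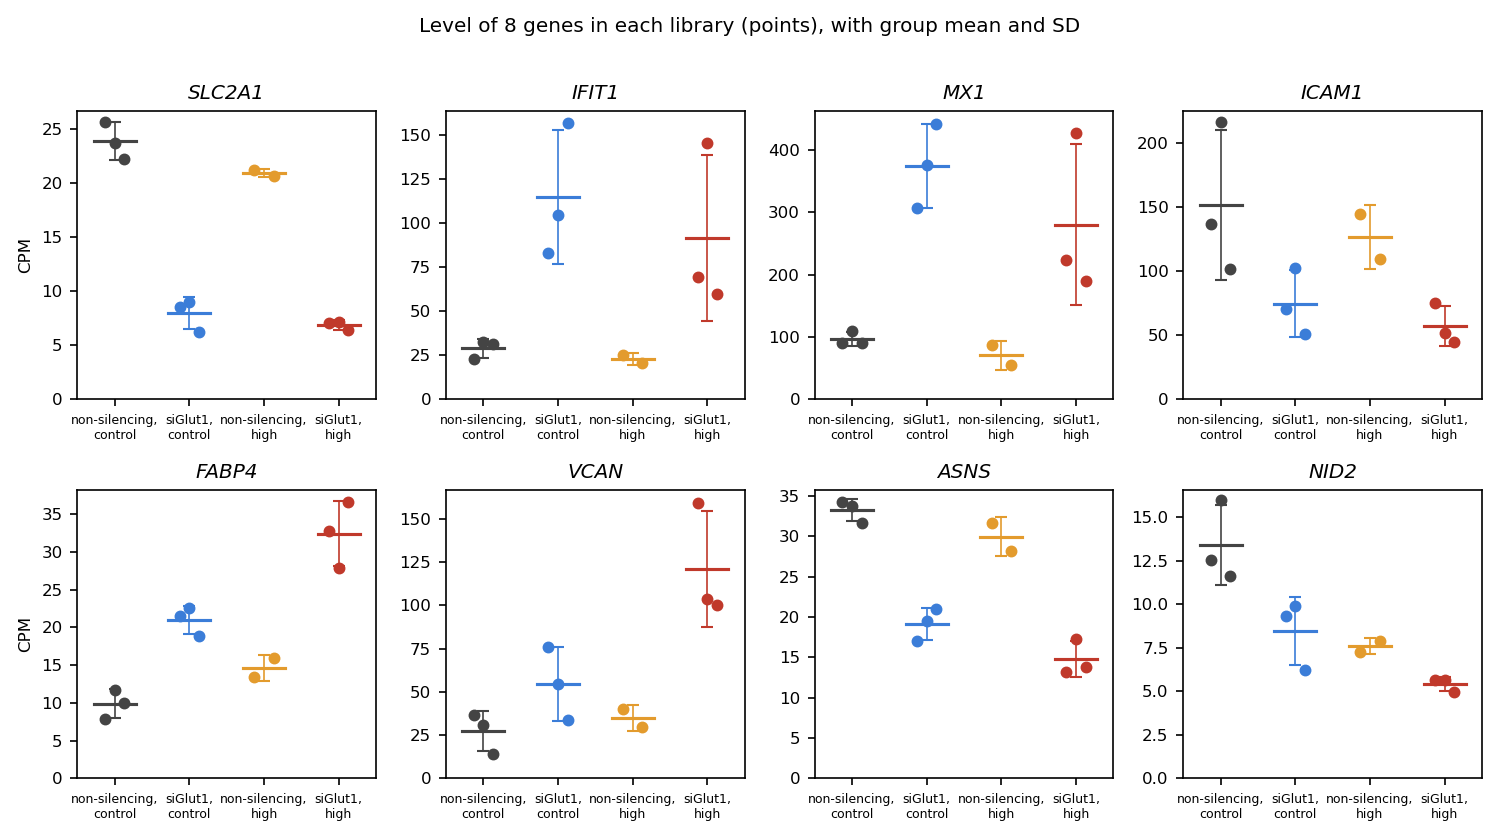
Level in CPM (linear axis from 0) of 8 genes in each of the 11 libraries, by group of siRNA and medium; lines are group means and bars SD. SLC2A1, ASNS, ICAM1 and NID2 lie lower in siGlut1 high than in non-silencing control without overlap, and IFIT1, MX1, FABP4 and VCAN higher, with 1 siGlut1 high library well above the other 2 for IFIT1 (69.2, 145 and 59.8 CPM) and MX1.

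The combined log2 fold change of a gene is the sum of an siRNA component (siGlut1 against non-silencing siRNA, averaged over both media) and a glucose component (high against control, averaged over both siRNAs). These share libraries with the combined comparison, so their values are set side by side and not counted against it. The siRNA component called 2066 genes (14.4%) and the glucose component 59 (0.413%). The 59 of the glucose component changed to 5 with NC 1 removed, 19 with NC 2, 850 with NC 3, 38 with SC 1, 12 with SC 2, 25 with SC 3, 2 with NH 1, 0 with NH 3, 6 with SH 1, 14 with SH 2 and 2 with SH 3, to 2561 without NC 3 and SC 3 together and to 539 with DESeq2, while the 2066 became 2541 and 2772 under the latter 2. The siRNA component minus the glucose component rests on libraries that the combined comparison does not use, since it equals siGlut1 control minus non-silencing high. Where both have the same sign, this difference tells which was larger. With opposite signs it adds up both sizes and does not tell which was larger. It passed its threshold for 854 genes (5.97%), among them 291 of the 1291 called ones (22.5%). In 280 of these 291 the siRNA component was the larger in size, and in 11 the glucose component. Where the signs are opposite, that split follows the sign of the combined change and is not tested by the difference. The 854 changed to 1543 with NC 3 removed, 413 with SC 1, 365 with SC 2, 57 with NH 1 and 40 with NH 3, and the 2066 to 1020 with NH 1 removed, 1001 with NH 3 and 1375 with SH 2. No gene passed the test for a departure of the combined change from the sum of both single changes: edgeR's interaction test called 0 (0%), DESeq2 called 0, and 394 genes had an unadjusted p under 0.05.

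**Figure D2:**
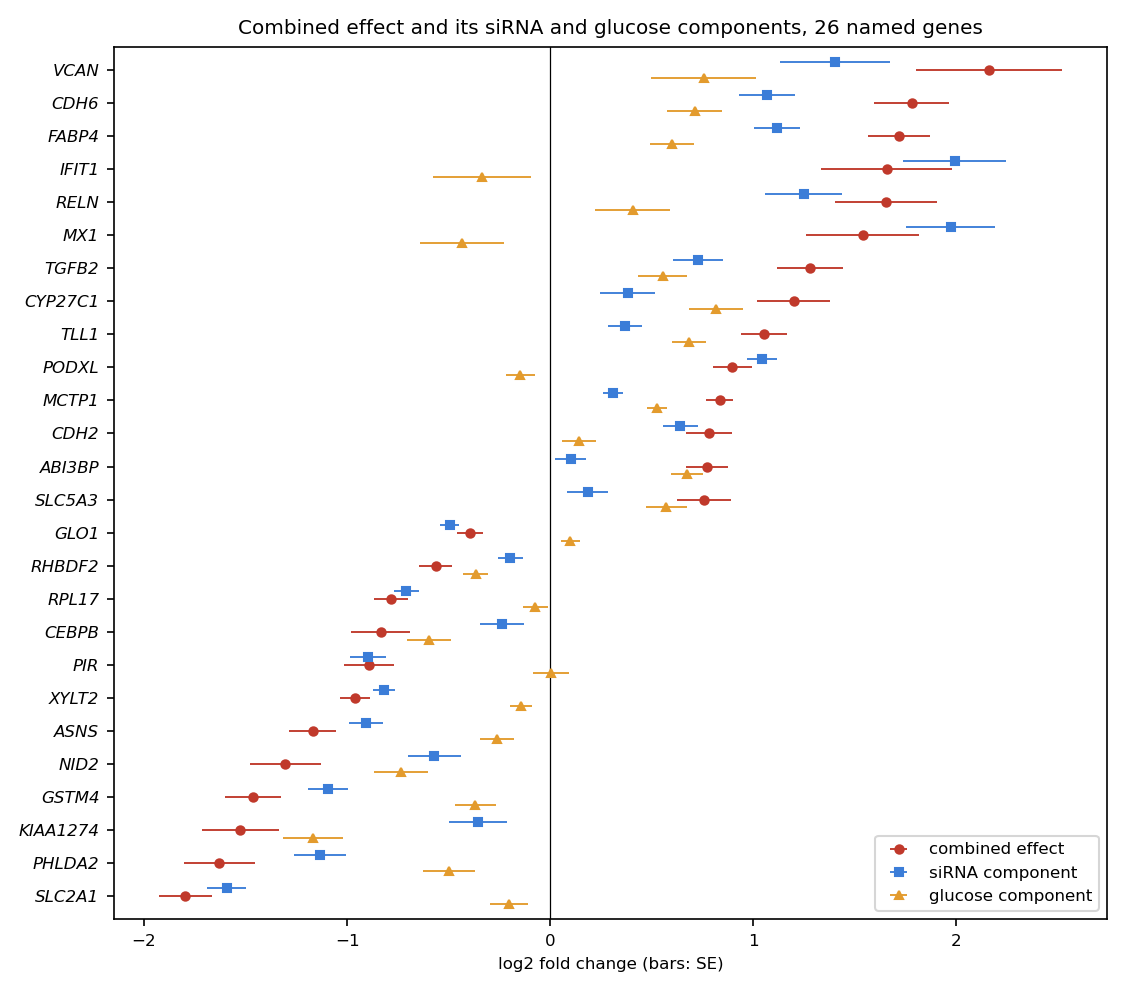
Log2 fold change of 26 named genes, all called in the combined effect, with bars of 1 SE: the combined effect (circles), the siRNA component (squares) and the glucose component (triangles), which add up to it. For SLC2A1, PIR, GLO1 and RPL17 the siRNA component lies close to the combined value, for KIAA1274, ABI3BP and SLC5A3 the glucose component is the larger, and for IFIT1 and MX1 the components have opposite signs.

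**Figure D3:**
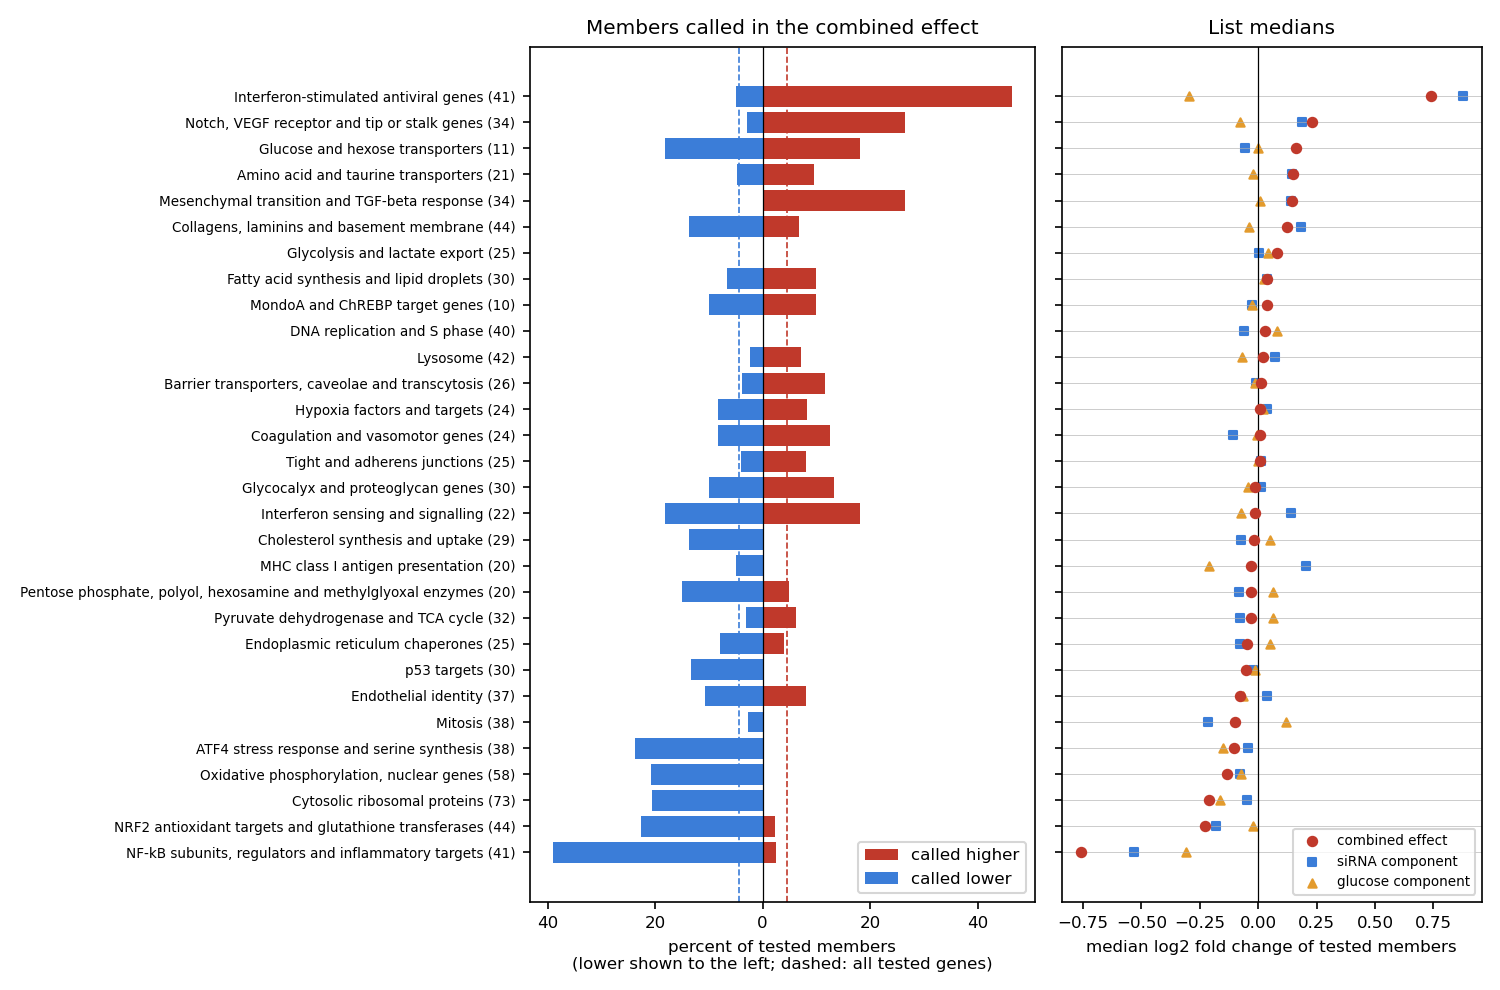
Left, percent of the tested members of 30 gene lists (number tested in brackets) called higher (to the right) or lower (to the left) in the combined effect, with dashed lines at the percent of all tested genes; right, list medians of the combined log2 fold change and of its components. The interferon-stimulated list has the highest median (0.74) and the NF-kB list the lowest (-0.76).

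Genes that interferon induces were higher in siGlut1 high. Of 41 tested interferon-stimulated antiviral genes, 19 rose and 2 fell, with a median of 0.74 against -0.013 over all tested genes. The share called was 51.2%, beside 9.03% of all tested genes. IFIT1, which binds viral RNA (chromosome 10, 91152322 to 91163744, hg19), was at 22.7, 32.8 and 31.5 CPM in non-silencing control and 69.2, 145 and 59.8 CPM in siGlut1 high, 3.15 times as high (1.66 ± 0.32 SE, adjusted p = 0.0122). MX1, an antiviral GTPase, was at 89.9, 109.5 and 89.99 CPM against 224, 428 and 189 CPM (1.54 ± 0.28 SE, adjusted p = 0.00891). Its relative MX2 was at 4.07, 4.25 and 3.79 CPM against 12.5, 31.3 and 6.14 CPM (2.04 ± 0.47 SE, adjusted p = 0.0224). In all 3 genes siGlut1 high 2 was the highest library, and the groups did not overlap. CMPK2, a mitochondrial nucleotide kinase, RSAD2, which makes an antiviral nucleotide, and IFITM1, a membrane protein that blocks virus entry, increased by 1.99, 1.96 and 1.704. ISG15, a ubiquitin-like modifier, rose by 1.07 (adjusted p = 0.0223), IFI44L by 1.3998 (adjusted p = 0.00587) and OAS2, a sensor of double-stranded RNA, by 1.14 (adjusted p = 0.0192). IFITM2, a relative of IFITM1, was among those that fell (-0.298, adjusted p = 0.0177). IFIT, IFITM, MX and OAS genes have close relatives, so reads could be shared among them. Removing 1 library at a time ended the calls of IFIT1 (NC 1), MX2 (NC 1 and 2, SH 2), CMPK2 (NC 1 and 2, SH 2), RSAD2 (NC 1 and 2, SH 2), IFITM1 (NC 1 to 3, SH 1 and 2), ISG15 (NC 1), OAS2 (NC 1, SH 2) and IFITM2 (NC 2, SH 1), with adjusted p up to 0.104. The length correction described below ended the call of IFITM2, with adjusted p = 0.17.

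The rise of these genes came with opposite signs of the components: the list's median was 0.88 for the siRNA component and -0.296 for the glucose component. IFIT1 gave 1.99 ± 0.25 SE for the siRNA component and -0.34 ± 0.24 SE for the glucose component, and the difference of both passed its threshold (adjusted p = 0.00827). MX1 gave 1.97 ± 0.22 SE for the siRNA component and -0.43 ± 0.21 SE for the glucose component (difference, adjusted p = 0.00384). The glucose component of neither passed (adjusted p = 0.504 and 0.312). The difference passed for 27 of the 41 members. Where the signs are opposite, this does not tell which component was larger. The 19 rising members became 4 with NC 1 removed, 11 with NC 2 and 8 with SH 2, and 19 rose and 2 fell without NC 3 and SC 3. MX1 kept its call in each removal.

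The promoters of IFIT1 and IFITM1 are shown because both genes rose and their sequences hold the core of the interferon response element. They are RefSeq sequences of GRCh38.p14, plus strand, from 250 bases before the start of the gene to 10 after it, and capitals mark the core GAAANNGAA, searched on both strands.
IFIT1, chr10:89392373-89392632: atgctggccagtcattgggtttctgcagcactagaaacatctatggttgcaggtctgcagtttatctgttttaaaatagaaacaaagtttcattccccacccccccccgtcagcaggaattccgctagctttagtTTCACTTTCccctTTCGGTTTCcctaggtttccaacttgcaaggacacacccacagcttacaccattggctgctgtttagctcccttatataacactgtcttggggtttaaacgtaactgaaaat
IFITM1, chr11:313790-314049: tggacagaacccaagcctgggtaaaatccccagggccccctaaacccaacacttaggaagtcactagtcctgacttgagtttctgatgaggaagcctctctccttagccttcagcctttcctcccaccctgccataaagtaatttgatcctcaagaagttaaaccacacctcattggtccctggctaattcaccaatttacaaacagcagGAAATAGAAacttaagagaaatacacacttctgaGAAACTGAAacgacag
In IFIT1 both matches lie on the minus strand and are printed as its reverse complement. In IFITM1 both lie on the plus strand. RefSeq promoters of 300 bases (250 before and 50 after the start) were at hand for 33 of the 41 tested genes, some with several starts, and 33 of their 45 promoters (73.3%) held the core, against 2847 of all 35116 promoters (8.11%). Of the rising genes, 14 of 16 with a promoter had a match. Members that were not called, such as IFIT3, OAS3 and HERC5, held the core too, while others, such as OAS1 and SAMD9L, did not. The list was drawn up of known interferon-stimulated genes, so that these shares are no independent evidence of interferon signalling. A match is a description of sequence, not of binding.

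The factors that sense RNA and pass the interferon signal did not move one way. Of 22 tested, 4 rose and 4 fell, and 3 rose and 5 fell without NC 3 and SC 3. The share called was 36.4%, beside 9.03% of all tested genes. STAT2 (0.36, adjusted p = 0.0298), IFI16 (0.299, adjusted p = 0.0317) and the RNA sensor DDX58 (0.53, adjusted p = 0.0392) were among those that rose. The transcription factor IRF1 (-0.53, adjusted p = 0.00964), the receptor subunit IFNGR1 (-0.51, adjusted p = 0.0292), IRF2 (-0.41, adjusted p = 0.0166) and TMEM173, which encodes STING (-0.37, adjusted p = 0.0389), fell. Over removals of 1 library the counts ran from 0 to 4 higher and 1 to 4 lower. IRF1 kept its call in each of them. Of 20 genes of MHC class I presentation, 0 rose and PSMB10, an immunoproteasome subunit, fell (-0.696, adjusted p = 0.0126). These 5% called lay below the 9.03% of all tested genes. Of this list, 1 rose and 5 fell without NC 3 and SC 3. Its components had medians of 0.21 for the siRNA and -0.21 for glucose. Calls that ended when 1 library was left out were those of STAT2 (NC 1, SH 1 and 2), IFI16 (NC 1 and 2, SC 1, SH 1 and 2), IFNGR1 (NC 1 and 2, SH 2 and 3), IRF2 (NC 1 and 2, SH 2 and 3) and PSMB10 (NC 1, SH 1), with adjusted p up to 0.123. Most removals ended the call of DDX58 (NC 1 to 3, SC 2, NH 1 and 3, SH 1 and 2) and TMEM173 (NC 1 and 2, SC 1, NH 1 and 3, SH 1 to 3), with adjusted p up to 0.146. The length correction described below ended the call of DDX58, IFNGR1 and TMEM173, with adjusted p up to 0.0656.

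Genes of NF-kB and its inflammatory targets were lower in siGlut1 high: 16 of 41 fell and 1, the cytokine TNFSF15, rose (0.82, adjusted p = 0.0404), with a median of -0.76. The share called was 41.5%, beside 9.03% of all tested genes. Among the adhesion molecules that bind leukocytes, VCAM1 (chromosome 1, 101185196 to 101204601, hg19) was at 2.82, 6.88 and 1.41 CPM in non-silencing control and 0.917, 0.585 and 0.3101 CPM in siGlut1 high (-2.65 ± 0.599 SE, adjusted p = 0.0214). ICAM1 (chromosome 19, 10381517 to 10397291, hg19) was at 137, 216 and 102 CPM against 75.2, 51.8 and 45.1 CPM (-1.405 ± 0.304 SE, adjusted p = 0.018). In both genes non-silencing control 2 was the highest library and the groups did not overlap. Of the subunits, RELB was at 26.5, 29.9 and 20.2 CPM against 11.4, 11.2 and 7.82 CPM (-1.34 ± 0.198 SE, adjusted p = 0.00365), and NFKB2, the partner it is known to pair with, fell by 0.90 (log2, adjusted p = 0.00326). The feedback regulators TNFAIP3 (-0.77, adjusted p = 0.0268), NFKBIE (-0.404, adjusted p = 0.0422) and TNIP1 (-0.76, adjusted p = 0.00347) fell, and so did TRAF1 (-1.32, adjusted p = 0.0116) and the survival factor BIRC3 (-1.27, adjusted p = 0.00878). CSF2, a growth factor of myeloid cells, was at 0.323, 0.708 and 0.501 CPM against 0, 0.0344 and 0 CPM, and the chemokine CCL20 at 0.323, 0.708 and 1.25 CPM against 0.0417, 0.172 and 0.222 CPM. Both were called, but lay so near to no counts that no fold is given. Leaving out 1 library ended the call of VCAM1 (NC 2, SH 2 and 3), ICAM1 (NC 2, SH 2 and 3) and TNFAIP3 (NC 2, SH 1 to 3), with adjusted p up to 0.0954. A call that did not outlast most removals was that of TNFSF15 (NC 1 to 3, SC 2, SH 1 to 3), NFKBIE (NC 1 and 2, SC 1 and 2, NH 1 and 3, SH 1 to 3) and CCL20 (NC 2 and 3, NH 1 and 3, SH 1 to 3), with adjusted p up to 0.14. After the correction for gene length described below, no call was left for NFKBIE, with adjusted p = 0.0586.

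Both components of the NF-kB list were below 0 in the median, -0.53 for the siRNA and -0.31 for glucose. RELB gave -0.703 ± 0.15 SE for the siRNA component and -0.63 ± 0.15 SE for the glucose component. ICAM1 gave -1.08 ± 0.22 SE for the siRNA component and -0.32 ± 0.23 SE for the glucose component, and VCAM1 -1.86 ± 0.42 SE for the siRNA component and -0.79 ± 0.43 SE for the glucose component. None of these 3 glucose components passed the threshold (adjusted p = 0.0971, 0.495 and 0.371). The 16 falling members became 10 with NC 2 removed, 7 with SH 2 and 8 with SH 3, and 2 rose and 23 fell without NC 3 and SC 3. CEBPD, a transcription factor induced in inflammation, also fell, from 7.502, 10.1 and 2.85 CPM to 2.25, 1.45 and 1.04 CPM (-2.13 ± 0.48 SE, adjusted p = 0.0213). Removing 1 library at a time ended the calls of CEBPD (NC 1 and 2, SH 2 and 3), with adjusted p up to 0.0834.

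The promoters of ICAM1 and VCAM1 are shown because both fell and carry the NF-kB element. Source, build, strand and span are as for the promoters above, and capitals mark GGNNTTTCC, searched on both strands.
ICAM1, chr19:10270870-10271129: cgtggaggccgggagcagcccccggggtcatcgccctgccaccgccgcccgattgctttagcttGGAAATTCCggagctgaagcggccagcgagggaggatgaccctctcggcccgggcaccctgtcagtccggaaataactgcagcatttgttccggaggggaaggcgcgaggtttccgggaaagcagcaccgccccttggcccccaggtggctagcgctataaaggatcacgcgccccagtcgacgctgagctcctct
VCAM1, chr1:100719492-100719751: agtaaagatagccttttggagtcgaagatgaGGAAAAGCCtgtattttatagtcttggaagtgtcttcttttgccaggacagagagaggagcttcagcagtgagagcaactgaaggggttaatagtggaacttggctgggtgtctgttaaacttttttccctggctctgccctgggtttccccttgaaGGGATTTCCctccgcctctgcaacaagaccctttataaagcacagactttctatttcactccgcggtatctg
ICAM1 holds 1 match, on the minus strand, and VCAM1 holds 1 on each strand. Of 46 promoters of the 33 list members with a RefSeq promoter, 27 (58.7%) held the element, against 2198 of all 35116 (6.26%). Of the falling members, 12 of 13 with a promoter had a match. Members that were not called, such as NFKB1, NFKBIA, IL6 and CXCL10, held the element too, while others, such as RELA and IL1A, did not. The list was drawn up of known NF-kB genes, so that these shares are no independent evidence of the factor.

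The 12 largest rises included, beside interferon genes, genes of matrix, adhesion and lipid handling. VCAN, the large proteoglycan versican, was at 36.4, 30.97 and 14.1 CPM in non-silencing control and 159, 104 and 100.05 CPM in siGlut1 high, 4.47 times as high (2.16 ± 0.36 SE, adjusted p = 0.00627). CDH6, a cadherin, was at 8.95, 7.13 and 7.58 CPM against 22.3, 31.4 and 27.6 CPM (1.78 ± 0.19 SE, adjusted p = 0.000752). RELN, the secreted glycoprotein reelin, was at 23.5, 15.1 and 15.7 CPM against 50.5, 72.2 and 47.98 CPM (1.65 ± 0.25 SE, adjusted p = 0.0039). FABP4, a fatty acid carrier of capillary endothelium, was at 7.87, 11.7 and 10.02 CPM against 32.7, 27.9 and 36.6 CPM, 3.29 times as high (1.72 ± 0.15 SE, adjusted p = 0.000318). Every siGlut1 high library exceeded every baseline library in these 4 genes. HSD17B2, which oxidises sex steroids, and WNK3, a kinase that controls chloride cotransporters, rose by 2.24 and 1.74, from 0.934 and 1.25 CPM. FABP5, a relative of FABP4, rose by 0.699 (adjusted p = 0.00097). All 7 calls held in each removal of 1 library. RELN is also on the list of lymphatic endothelial markers, of which 2 of 4 tested rose, the other being FLT4 (0.52, adjusted p = 0.0217). The 6 markers summed to 217 to 285 CPM against 164 to 228 CPM, PROX1 was at a mean of 7.42 CPM against 4.91 CPM, and PDPN was at 0 in both groups. The part of such cells in the result was not tested. Single libraries decided the calls of FLT4 (NC 1, SH 1 and 3), with adjusted p up to 0.0777.

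Genes of mesenchymal transition and TGF-beta signalling rose in 9 of 34 cases and fell in 0. The share called was 26.5%, beside 9.03% of all tested genes. The ligand TGFB2 was at 6.29, 4.76 and 6.23 CPM against 13.4, 14.6 and 14.1 CPM (1.28 ± 0.16 SE, adjusted p = 0.00194), and its receptor TGFBR1 rose by 0.63 (adjusted p = 0.00825). INHBA, a subunit of activin, rose by 0.95 (adjusted p = 0.00448), and CDH2, the N-cadherin that joins endothelium to pericytes, by 0.78 (adjusted p = 0.00331). The targets CTGF, CYR61 and SKIL rose by 0.59, 0.402 and 0.45. TAGLN, which binds actin and marks smooth muscle, was higher by 0.99 (adjusted p = 0.0267). TGFB2, INHBA and CDH2 kept their calls in each removal, and the counts of the list ranged from 6 to 11 higher and 0 to 2 lower over single removals, and 11 rose and 3 fell without NC 3 and SC 3. The median of the list was 0.15. Fibroblast markers summed to 23.4 to 45.9 CPM in siGlut1 high and to 9.30 to 28.3 CPM in non-silencing control, with 5 of 8 below 1 CPM and DPT at 0. COL1A2 was at 11.5, 22.2 and 4.32 CPM against 37.1, 16.6 and 19.9 CPM, with overlapping groups (0.97 ± 0.55 SE, adjusted p = 0.289). COL3A1 (0.887, 0.557 and 0.751 CPM against 2.13, 0.998 and 1.42 CPM, 1.03 ± 0.2995 SE, adjusted p = 0.0544) and FAP (3.31, 3.64 and 1.85 CPM against 4.54, 3.96 and 4.52 CPM, 0.58 ± 0.28 SE, adjusted p = 0.208) did not overlap and were not called. The part of these cells in the result was not tested. Calls that ended when 1 library was left out were those of SKIL (NC 1 and 2, NH 3, SH 1 and 3) and TAGLN (NC 1, SH 1 to 3), with adjusted p up to 0.115. Correcting for gene length, as described below, ended the call of SKIL, with adjusted p = 0.102.

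Of 34 genes of Notch and VEGF receptor signalling and of tip or stalk cells, 9 rose and 1 fell. The share called was 29.4%, beside 9.03% of all tested genes. FLT1, a VEGF receptor that binds the ligand without strong signalling, was at 167, 172 and 198 CPM against 279.5, 332 and 284 CPM (0.74 ± 0.105 SE, adjusted p = 0.00307). ANGPT2, the ligand that loosens vessels through Tie2, rose by 0.86 (adjusted p = 0.0122). The lymphatic receptor FLT4, its ligand VEGFC (0.38), PGF (0.37), the tip cell genes CXCR4 (0.38) and APLN (0.39), the Notch ligand JAG1 (0.298) and AXIN2 (0.55) made up the rest. UNC5B, a netrin receptor, fell (-0.66, adjusted p = 0.0149). FLT1 kept its call in each removal. The 9 became 2 with NC 1 removed, 5 with SH 1, 3 with SH 2 and 2 with SH 3; without both libraries numbered 3 of control glucose, 10 rose and 6 fell. Leaving out 1 library ended the call of ANGPT2 (NC 1), CXCR4 (NC 1, SH 2 and 3), APLN (SH 2 and 3), JAG1 (NC 1, SH 2 and 3) and UNC5B (NC 2, SH 3), with adjusted p up to 0.0781. Most removals ended the call of VEGFC (NC 1 and 2, SC 1, NH 1 and 3, SH 1 to 3) and PGF (NC 1 to 3, SC 1, NH 1 and 3, SH 1 to 3), and every removal ended that of AXIN2, with adjusted p up to 0.158 over these 3 genes. The length correction described below ended the call of JAG1 and AXIN2, with adjusted p up to 0.0643.

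In the basement membrane and the glycocalyx, changes went both ways. NID2, the nidogen that links laminin to collagen, was at 12.5, 15.99 and 11.6 CPM against 5.67, 5.64 and 4.94 CPM (-1.304 ± 0.18 SE, adjusted p = 0.00242). LOXL4, a collagen crosslinking enzyme, and COL6A1 fell by 1.05 and 0.71 on the log2 scale, whereas COL12A1 rose by 1.07 and LOX by 0.56. In all, 3 of 44 collagen and basement membrane genes rose and 6 fell, and 7 rose and 8 fell without NC 3 and SC 3. Of 30 glycocalyx genes, 4 rose and 3 fell. The share called was 20.5% for the basement membrane list and 23.3% for the glycocalyx list, beside 9.03% of all tested genes. XYLT2, which starts the sugar chains of proteoglycans, was at 39.2, 38.7 and 41.7 CPM against 19.6, 19.96 and 21.8 CPM (-0.96 ± 0.074 SE, adjusted p = 0.00015). The heparan sulfate carriers GPC1 (-0.77, adjusted p = 0.00802) and SDC3 (-0.805, adjusted p = 0.0144) fell, while SDC2 (0.66, adjusted p = 0.012) and HAS3, a hyaluronan synthase (0.6999, adjusted p = 0.0331), rose. Over removals of 1 library the glycocalyx counts were 2 to 5 higher and 2 to 3 lower, and 6 rose and 4 fell without NC 3 and SC 3. The counts of basement membrane were 2 to 3 higher and 2 to 6 lower. Removing 1 library at a time ended the calls of COL6A1 (NC 1 and 2, SH 2 and 3), COL12A1 (NC 2, SH 2), SDC3 (NC 1 and 2, SH 2) and HAS3 (NC 1 and 2, SH 1 to 3), with adjusted p up to 0.108.

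Of 44 NRF2 targets and glutathione transferases, 10 fell and 1 rose, with a median of -0.23. GSTM4, a transferase, was at 5.69, 5.31 and 5.73 CPM against 1.79, 2.03 and 2.22 CPM (-1.46 ± 0.14 SE, adjusted p = 0.000428), though it has near-identical relatives that could share its reads. PIR, an NRF2 target, was at 62.1, 77.97 and 60.9 CPM against 36.1, 34.5 and 37.5 CPM (-0.89 ± 0.12 SE, adjusted p = 0.00248). The quinone reductase NQO1 was at 329, 335 and 320.1 CPM against 237, 238 and 221 CPM, and fell (-0.499 ± 0.063 SE, adjusted p = 0.00185). Catalase (CAT, -0.55), the ferritin chain FTH1 (-0.59) and the transferase MGST2 (-0.67) fell too, and GCLC, of glutathione synthesis, rose (0.32, adjusted p = 0.0478). The siRNA component of NQO1 was -0.57 and its glucose component 0.067. The 10 ranged from 7 to 10 over single removals and 1 rose and 14 fell without NC 3 and SC 3. Of 38 ATF4 targets and serine synthesis genes, 0 rose and 9 fell. The share called was 25% for the NRF2 list and 23.7% for the ATF4 list, beside 9.03% of all tested genes. ASNS, asparagine synthetase, was at 34.2, 33.8 and 31.7 CPM against 13.2, 17.3 and 13.8 CPM (-1.17 ± 0.11 SE, adjusted p = 0.000569). CEBPB (-0.84, adjusted p = 0.00763), DDIT4, an inhibitor of mTORC1 (-1.08, adjusted p = 0.0119), and PHGDH, which opens serine synthesis (-0.82, adjusted p = 0.0356), fell, and so did PSAT1 (-0.47) and ATF4 (-0.27). The 9 became 4 with NC 1 removed, 5 with SH 1, 5 with SH 2 and 5 with SH 3, and 1 rose and 10 fell without NC 3 and SC 3. The neutral amino acid exchanger SLC7A8 fell (-1.48, adjusted p = 0.00331), while SLC7A6 (0.52, adjusted p = 0.00144) and SLC7A2 (0.73, adjusted p = 0.0236) rose. These were the calls among 21 tested amino acid and taurine transporters (14.3%), and 4 rose and 4 fell without NC 3 and SC 3. With 1 library left out, calls ended for FTH1 (NC 1 and 2, SH 1 to 3), ATF4 (NC 1 and 2, SH 1 to 3), DDIT4 (SH 2), PHGDH (NC 1 and 2, NH 1, SH 1 to 3), PSAT1 (NC 1, SH 1 and 3) and SLC7A2 (NC 1 and 2, SH 2), with adjusted p up to 0.133. Most removals ended the call of GCLC (NC 1 and 2, SC 1 to 3, NH 1 and 3, SH 1 to 3), with adjusted p up to 0.14. Correcting for gene length, as described below, ended the call of FTH1, GCLC, ATF4 and PHGDH, with adjusted p up to 0.0637.

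Transcripts of glucose breakdown itself gave no call. Of 25 genes of glycolysis and lactate export, 0 were called, beside 9.03% of all tested genes. Their log2 fold changes ran from -0.25 to 0.38. In 9 of them the groups did not overlap (8 higher, 1 lower), beside 29% of all tested genes. Without both control-glucose libraries numbered 3, 3 of them were higher and 2 lower. GAPDH gave 0.022 ± 0.052 SE and ENO1 0.017 ± 0.078 SE. In the side branches, GLO1, which detoxifies methylglyoxal, was at 236, 226 and 249.7 CPM against 187, 183 and 170.1 CPM (-0.397 ± 0.063 SE, adjusted p = 0.00521). TKT fell (-0.29, adjusted p = 0.0426), and GFPT1, the first enzyme of the hexosamine pathway, rose (0.29, adjusted p = 0.0349), the only 1 of 20 list members to do so, while 3 fell, and 3 rose and 4 fell without NC 3 and SC 3. GLO1 kept its call in each removal. TXNIP, which glucose induces through MondoA and which curbs glucose uptake, was at 119, 187 and 83.9 CPM against 149.8, 94.6 and 100.03 CPM, and the groups overlapped (-0.18 ± 0.28 SE, adjusted p = 0.739). Its components were opposite: -0.81 ± 0.21 SE for the siRNA component and 0.63 ± 0.21 SE for the glucose component (adjusted p = 0.0242 and 0.186). TXNIP was at 304 and 227 CPM in non-silencing high and at 96.4, 122 and 75.8 CPM in siGlut1 control. Its departure from the sum of both single changes was -0.81 ± 0.41 SE and was not called (adjusted p = 0.999). The list of MondoA and ChREBP targets, 10 genes tested, also holds MLXIP, which encodes MondoA itself. Of this list, ARRDC3 fell (-0.47, adjusted p = 0.0267) and MLXIP rose (0.33, adjusted p = 0.0365), and 1 rose and 2 fell without NC 3 and SC 3. The share called was 20% in this list and 20% in that of the side branches, beside 9.03% of all tested genes. Single libraries decided the calls of GFPT1 (NC 1 and 2, NH 3, SH 1 to 3) and ARRDC3 (NC 2, SH 2 and 3), with adjusted p up to 0.111. A call that did not outlast most removals was that of TKT (NC 1 and 2, SC 1 and 2, NH 1 and 3, SH 1 to 3) and MLXIP (NC 1 and 3, NH 1 and 3, SH 1 to 3), with adjusted p up to 0.153. The length correction described below ended the call of TKT, GFPT1 and MLXIP, with adjusted p up to 0.265.

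In 293 of the 1291 called genes the glucose component was the larger in size, whether or not it passed a threshold, and the following are the examples that the rule for named genes gave. KIAA1274, also known as PALD1, was at 4.76, 5.11 and 3.63 CPM in non-silencing control, 1.96 and 1.6996 CPM in non-silencing high, 3.22, 3.799 and 2.57 CPM in siGlut1 control and 1.58, 1.69 and 1.42 CPM in siGlut1 high. It was low in both high-glucose groups, and its combined value of -1.52 ± 0.19 SE (adjusted p = 0.00185) divided into -0.36 ± 0.14 SE for the siRNA component and -1.17 ± 0.15 SE for the glucose component. ABI3BP, a matrix protein, was at 54.8 ± 5.19 (SD, n = 3) CPM at baseline and 93.6 ± 7.22 (SD, n = 3) CPM in siGlut1 high (0.77 ± 0.104 SE, adjusted p = 0.00242), with 0.101 ± 0.078 SE for the siRNA component and 0.67 ± 0.077 SE for the glucose component. The difference passed its threshold for ABI3BP (adjusted p = 0.017) and not for KIAA1274 (adjusted p = 0.0512). CYP27C1, which converts forms of vitamin A, rose (1.1996 ± 0.18 SE, adjusted p = 0.0039), and RHBDF2, which guides the release of TNF, fell (-0.56 ± 0.082 SE, adjusted p = 0.00331). In TLL1, a matrix protease, and MCTP1, a calcium-binding membrane protein, both components passed with the same sign. MCTP1 was at 76.7, 79.2 and 77.4 CPM at baseline, 97.9, 87.002 and 99.3 CPM with siGlut1 alone, 108 and 113 CPM with high glucose alone and 136, 137 and 142 CPM with both (0.83 ± 0.066 SE, adjusted p = 0.00015). TLL1 rose (1.05 ± 0.11 SE, adjusted p = 0.000752), with components of 0.37 and 0.68. These 6 combined calls held in each removal, but the glucose component's own calls moved with single libraries, as given above.

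Fold changes followed gene length. Length here is the deposited column CodingLength, not the span between a gene's coordinates, and for SLC2A1 it is 3670 bases. Across the 14298 tested genes Spearman's rho of the combined log2 fold change with the deposited length was 0.254; genes are not independent replicates. The log2 fold change rose by 0.225 per 10-fold of length. Among the 2860 shortest genes (up to 1724 bases) 32 were called higher and 227 lower, and among the 2860 longest (from 5195 bases) 288 higher and 58 lower. The median length was 4715 bases for genes called higher, 2282 for those called lower and 3033 for all tested. The slope of each library, measured on its deviation from the gene means, was 0.305, 0.152 and 0.05598 in siGlut1 high 1, 2 and 3. It was -0.0381, 0.0188 and -0.129 in non-silencing control 1, 2 and 3. Each siGlut1 high library thus lay above each baseline library (exact permutation test, two-sided, p = 0.1, the smallest that 3 against 3 allows). In the remaining libraries the slope ran from -0.205 (siGlut1 control 3) to 0.0724 (siGlut1 control 1). The slopes of siGlut1 control 1 and non-silencing high 1 (0.0668) exceeded that of siGlut1 high 3. The rho was 0.115 for the siRNA component and 0.265 for the glucose component.

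**Figure D4:**
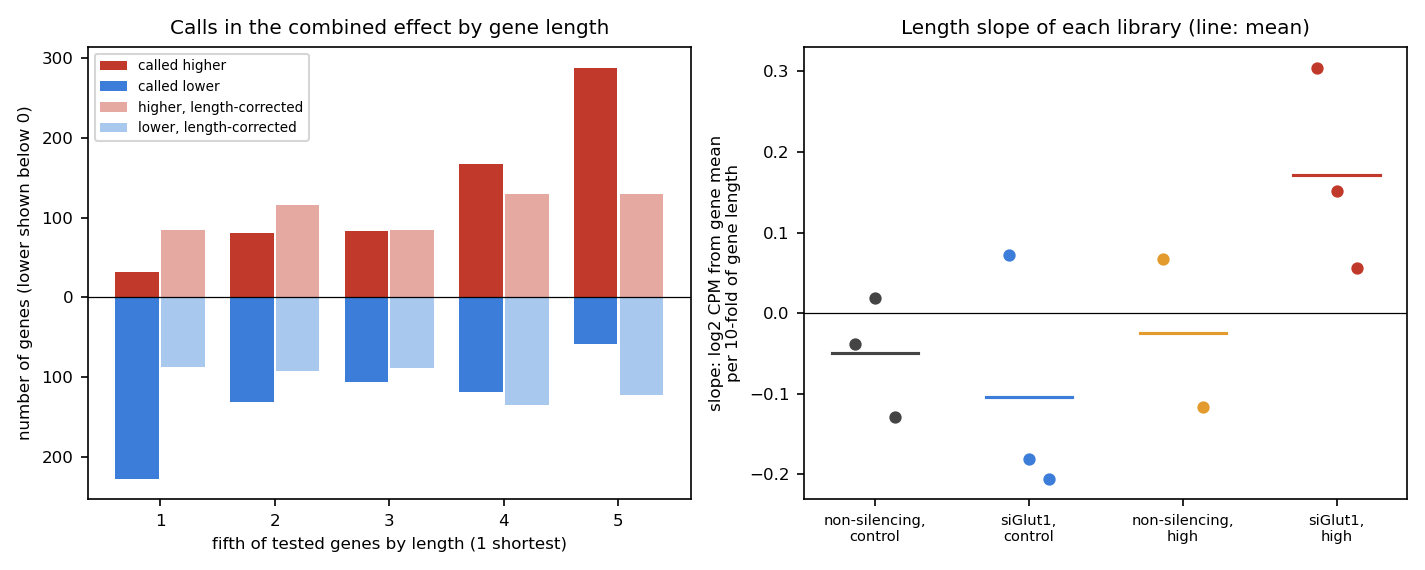
Left, genes called higher (above 0) and lower (below 0) in the combined effect in 5 classes of gene length, with the counts after removing each library's length trend in pale bars; the shortest class goes from 32 higher and 227 lower to 84 and 87, the longest from 288 and 58 to 129 and 122. Right, slope of log2 CPM (deviation from the gene mean) per 10-fold of gene length in each library, with group means: the siGlut1 high libraries lie between 0.05598 and 0.305, above all baseline libraries.

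Removing each library's trend on length left 1067 calls, 893 of them among the 1291. Of 73 cytosolic ribosomal protein genes, 15 fell and 0 rose before the correction (median -0.21, median length 786 bases), and 3 fell after it (median -0.069). The 15 became 7 with NC 2 removed, 26 with NC 3, 6 with SH 1 and 5 with SH 2, and were 37 without both control-glucose libraries numbered 3. Of 58 nuclear genes of oxidative phosphorylation, 12 fell before (median -0.13) and 2 after (0.0082). The 12 became 1 with NC 1 removed, 0 with NC 2, 7 with SC 1, 0 with SH 1, 0 with SH 2 and 2 with SH 3, and 0 rose and 15 fell without NC 3 and SC 3. Before the correction 20.5% of the ribosomal and 20.7% of the oxidative phosphorylation genes were called, beside 9.03% of all tested genes. RPL17 kept its fall, with 247, 260.5 and 299 CPM against 151, 157 and 159.8 CPM (-0.78 ± 0.083 SE, adjusted p = 0.000752; -0.67 after correction), whereas RPLP2 went from -0.44 to -0.24 (adjusted p = 0.0676). Ribosomal protein genes have many processed copies that could share reads. Interferon-stimulated genes stayed at 19 higher, NF-kB genes went from 16 to 14 lower, and mesenchymal genes from 9 to 10 higher. Interferon sensing genes went from 4 higher and 4 lower to 2 and 2, barrier genes from 3 to 1 higher, cholesterol genes from 4 to 1 lower, NRF2 targets from 10 to 8 lower, and the single rising members of the NRF2 and MondoA lists lost their calls. Of the 117 named genes called, 28 lost their call under the correction, among them TPGS1 (-2.24 before, -2.14 after) and MRPS24 (-1.54 and -1.38), which were among the 12 largest falls, and both had means under 5 CPM in each of the 2 groups. With 1 library left out, calls ended for TPGS1 (NC 1 and 2, SC 1, SH 1 to 3) and MRPS24 (NC 1 and 2, SC 1, SH 1 to 3), with adjusted p up to 0.136.

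Among endothelial and barrier genes, PODXL, a sialomucin of the vessel surface, was at 279, 332 and 291 CPM against 518, 580.4 and 578 CPM (0.896 ± 0.095 SE, adjusted p = 0.000752), with components of 1.04 for the siRNA and -0.15 for glucose. KLF4 (-1.004, adjusted p = 0.0138) and KLF2 (-0.49, adjusted p = 0.0456), transcription factors that blood flow induces, fell. Of 37 endothelial identity genes 3 rose and 4 fell, 2 to 4 and 1 to 7 over single removals, and 4 rose and 10 fell without NC 3 and SC 3. CLDN5, the main tight junction claudin of the barrier, was at 115, 129 and 52.8 CPM against 59.7, 57.3 and 64.6 CPM, with overlapping groups (-0.71 ± 0.28 SE, adjusted p = 0.137), and CDH5 gave 0.13 (adjusted p = 0.381). Of 25 junction genes, F11R fell (-0.39, adjusted p = 0.041) and PTPRB (0.398, adjusted p = 0.0484) and CDH2 rose, with 1 to 2 higher and 0 to 2 lower over single removals, and 2 rose and 5 fell without NC 3 and SC 3. Among 26 genes of transport across the barrier, the efflux pump ABCC3 fell (-1.43, adjusted p = 0.0138), while ABCC5 (0.41, adjusted p = 0.0126), the transferrin receptor TFRC (0.52, adjusted p = 0.0495) and caveolin CAV1 (0.37, adjusted p = 0.0165) rose, with 0 to 3 higher and 0 to 1 lower over single removals, and 4 rose and 6 fell without NC 3 and SC 3. The efflux pump ABCB1 gave -0.23 (adjusted p = 0.513). Called were 18.9% of the identity genes, 12% of the junction genes and 15.4% of the barrier transport genes, beside 9.03% of all tested genes. Single libraries decided the calls of KLF4 (SH 2), ABCC3 (NC 1, SH 2 and 3), ABCC5 (SH 3) and CAV1 (NC 1, SH 1 and 3), with adjusted p up to 0.064. Most removals ended the call of KLF2 (NC 1 to 3, NH 1 and 3, SH 1 and 2), F11R (NC 1 and 2, SC 1 and 2, NH 1 and 3, SH 1 to 3), PTPRB (NC 1 and 3, SC 1 and 2, NH 1 and 3, SH 1 and 2) and TFRC (NC 1 and 2, SC 1, NH 1 and 3, SH 1 to 3), with adjusted p up to 0.182. Correcting for gene length, as described above, ended the call of KLF2, PTPRB, ABCC5 and TFRC, with adjusted p up to 0.145.

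Among genes of clotting and vessel tone, prostacyclin synthase PTGIS was at 3.63, 5.87 and 1.82 CPM against 1.75, 0.792 and 0.952 CPM (-1.7004 ± 0.44 SE, adjusted p = 0.0361), and the cyclooxygenase PTGS1, which acts before it, fell as well (-1.399, adjusted p = 0.0398). TFPI2, a protease inhibitor, rose from 65.5, 74.8 and 131 CPM to 184, 221 and 242 CPM (1.25 ± 0.24 SE, adjusted p = 0.0119), a call that each removal left standing, and the vasoconstrictor endothelin (EDN1) rose by 0.57 (adjusted p = 0.0273). Of 24 tested genes of clotting and vessel tone, 3 rose and 2 fell (20.8%), and 5 rose and 3 fell without NC 3 and SC 3. Among cell cycle genes, 0 of 40 of DNA replication and 1 of 38 of mitosis were called, the latter being the phosphatase CDC25B (-0.49, adjusted p = 0.00263). Without NC 3 and SC 3 the first list had 4 higher and the second 1 higher and 1 lower. The share called was 9.03% over all tested genes, 0% for DNA replication and 2.63% for mitosis. It was 13.3% for the p53 targets and 13.8% for the cholesterol genes that follow. Of 30 p53 targets 0 rose and 4 fell, GADD45A (-0.45, adjusted p = 0.0121), BTG2 (-0.69, adjusted p = 0.0478), CD82 (-0.52, adjusted p = 0.0159) and FDXR (-0.47, adjusted p = 0.0162), with 0 to 2 higher and 0 to 4 lower over single removals, and 3 rose and 8 fell without NC 3 and SC 3. Of 29 cholesterol genes 0 rose and 4 fell (TM7SF2, MVD, HMGCS1 and FDFT1, from -0.81 to -0.25), with 0 to 2 higher and 0 to 5 lower over single removals, and 2 rose and 6 fell without NC 3 and SC 3. PHLDA2, an imprinted growth regulator, was at 23.96, 19.7 and 23.7 CPM against 6.295, 8.16 and 7.29 CPM (-1.63 ± 0.18 SE, adjusted p = 0.000788). The GABA transaminase gene ABAT was at 5.53, 6.58 and 4.48 CPM against 2.13, 2.06 and 1.66 CPM (-1.505 ± 0.23 SE, adjusted p = 0.0039). Both calls held in each removal. Calls that ended when 1 library was left out were those of PTGIS (NC 1 and 2, SC 1, NH 1, SH 2 and 3), EDN1 (NC 1, SH 1 to 3), GADD45A (SH 2), CD82 (NC 1 and 2, SH 2 and 3), FDXR (NC 1 and 2, SH 1 and 2), TM7SF2 (NC 1 and 2, SC 1, SH 2 and 3), MVD (NC 1 and 2, SC 1, SH 1 to 3) and FDFT1 (NC 1, NH 3, SH 1 to 3), with adjusted p up to 0.133. A call that did not outlast most removals was that of PTGS1 (NC 1 and 2, SC 1, NH 1 and 3, SH 1 to 3), BTG2 (NC 1 and 2, SC 1 and 2, NH 1 and 3, SH 1 to 3) and HMGCS1 (NC 1 and 2, SC 1, NH 1, SH 1 to 3), with adjusted p up to 0.168. The length correction described above ended the call of BTG2, TM7SF2, MVD and FDFT1, with adjusted p up to 0.0727.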

How the data were processed

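RNA-seq of purchased human brain microvascular endothelial cells was used. The authors deposited whole-number counts per gene with gene coordinates and lengths; per the submitters' processing notes the genome was hg19 and DESeq2 was used, without versions. The authors also deposited RPKM values, which scale the counts to gene length and library total, and these were not tested. The aligner, the counter and its use of strand are not stated in the material used here, and 2 library kits are named per the labels' protocols, which could affect coverage by length. All 12 columns map to samples. The column of non-silencing high 2 was left out as a mean of its neighbours, and 125 of 23398 entries (Y-linked genes, XIST and TSIX) were left out, leaving 23273. From these, 14298 genes passed filterByExpr.

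All 4 groups entered 1 model of edgeR 4.0.16 (R 4.3.3, limma 3.58.1) with TMM scaling and the quasi-likelihood test, with 7 residual degrees of freedom and Benjamini-Hochberg adjustment at 0.05. Fold changes are log2 from that fit at its default prior count, and a standard error is the fold change divided by the square root of F. A prior count of 2 was used for the log2 CPM behind the length offset. DESeq2 1.42.0 was an alternative, as were other filters, scalings, single removals and an offset removing each library's trend on log gene length. The fit was tested on simulated data. Libraries differed in total from 40135082 to 90536476 (median 49686182).

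Genes named were SLC2A1, the up to 12 largest called changes per direction of at least 2 CPM, up to 4 called members of each list, and up to 4 genes per pattern of components. Others were named after their values were seen. The members and lists were chosen with earlier results of these data known. Promoter sequences are RefSeq's for GRCh38.p14, matched by symbol, and protein sequences were not used here. A few genes are not reported here.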

Additional observations from a re-analysis of the deposited data

How the results depend on the processing

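The combined effect called 1291 genes. It called 2188 with DESeq2, 746 with only the groups compared, 15 with a fold minimum of 1.5, 3052 without both control-glucose libraries numbered 3, 2009 with all 12 columns and 412 to 2106 with 1 library left out. The siRNA component (2066) went to 19 with the fold minimum, 3184 with all 12 columns and 1001 to 2500 with 1 library left out. The glucose component (59) went to 539 with DESeq2, 0 with the fold minimum, 2561 without both control-glucose libraries numbered 3, 428 with all 12 columns and 0 to 850 with 1 library left out. The component difference (854) went to 1618, 551, 1, 2102 and 2301 with DESeq2, only the groups compared, the fold minimum, without both control-glucose libraries numbered 3 and with all 12 columns, and to 40 to 1543 with 1 library left out. The cause of these moves was not tested, except that only the groups compared and single removals leave fewer samples, and that the column added in all 12 columns is a mean of the other 2 of its group. The interaction called 0 genes under every alternative run, and the length trend stayed between 0.167 and 0.296 per 10-fold of length with 1 library left out.

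The other alternatives kept the combined count within 1.5 times: 1292 with DESeq2's size factors in edgeR, 1222 with no low count filter, 1345 with at least 1 CPM in 6 libraries, 1067 with the length correction and 1347 with all counts halved, an alternative chosen after seeing the data. Replicate numbers were not taken to pair the samples. Of 15 pairs of same-numbered libraries from different groups, 8 had deviations that correlated above 0.1 (from -0.253 to 0.539, median 0.117). Of 30 pairs with unlike numbers, 7 did (from -0.44 to 0.264, median -0.0814). Same-numbered pairs thus tended to correlate more, but not in every pair. The highest was that of non-silencing control 3 and siGlut1 control 3 (0.539), and between the groups compared the values were 0.023, -0.14 and 0.117. Not every library correlated best with its own number, as siGlut1 high 1 did so with non-silencing control 2 (0.243). With the replicate number as a block the combined effect called 1512 genes, and 1205 with the length correction as well, with 2193 for the siRNA component, 59 for the glucose component, 758 for the component difference and 0 for the interaction. Of the 117 called genes named by rule, 51 kept their call in all 11 single removals, 28 lost it with the length correction and 26 with only the groups compared, and none turned its direction in any alternative. The fold minimum of 1.5 ended 108 of the 117 calls. Leaving out SH 2, NC 1 or NC 2 ended 57, 52 and 46 of them. Of 35 called genes named outside the rule, 11 kept their call in all single removals. Genes below 1 CPM, such as CSF2, rest on few counts even in libraries of 40135082 counts or more.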

Other observations

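Against 9.03% of all tested genes, 9.38% were called among genes of pyruvate dehydrogenase and the TCA cycle, 9.52% among lysosomal genes and 16.7% among those of fatty acid synthesis and lipid droplets. Of 32 tested genes of pyruvate dehydrogenase and the TCA cycle, 2 rose and 1 fell in siGlut1 high (4 and 2 without NC 3 and SC 3). PDP1, the phosphatase that activates pyruvate dehydrogenase, was at 49.3, 49.6 and 56.7 CPM in non-silencing control and 65.9, 69.8 and 70.6 CPM in siGlut1 high (0.41 ± 0.073 SE, adjusted p = 0.00874). CPT2, which readies fatty acids for oxidation in mitochondria, was at 19.3, 19.4 and 18.8 CPM against 13.9, 15.01 and 14.2 CPM (-0.42 ± 0.078 SE, adjusted p = 0.0101), 1 of 2 that fell among 30 genes of fatty acid synthesis and lipid droplets, of which 3 rose (7 and 3 without NC 3 and SC 3). The groups overlapped in neither gene, and each kept its call in all 11 removals of 1 library. Of 42 lysosomal genes, 3 rose and 1 fell, with 0 to 6 higher and 0 to 5 lower over single removals, and 6 higher and 9 lower without NC 3 and SC 3. CTSB, a lysosomal protease, was at 1191, 1205 and 1079.9 CPM against 1502, 1449 and 1453 CPM (0.34 ± 0.068 SE, adjusted p = 0.013). CTSS, a protease of antigen processing, was at 22.5, 23.98 and 31.03 CPM against 14.4, 13.7 and 10.2 CPM (-1.03 ± 0.204 SE, adjusted p = 0.013). The call of CTSB ended without siGlut1 high 1 (adjusted p = 0.0509) and that of CTSS without siGlut1 high 3 (adjusted p = 0.0516).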
